A study of Mus musculus with 9 samples.

Results

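The 10 genes Syn1, Syt1, Dlgap1, Cadm2, Csmd1, Map2, Rbfox1, Vsnl1, Slc24a2 and Aldoc, which encode proteins of neurons and, for Aldoc, also of astrocytes, were followed through Argonaute (AGO) CLIP-seq libraries of mouse liver. Argonaute is the protein that holds microRNAs, and CLIP-seq reads the RNA that ultraviolet light crosslinks to it. The genes were chosen by their counts in these libraries, for being nearly absent from the controls. Every AGO-bound region (a cluster of reads) deposited under one of these names was then taken, which gave 223 of 92645 regions and 10 of 13725 named genes. Because the choice used the KO against control contrast, the levels below are a description and carry no test.

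The livers came from 4 miR-122 KO mice, 1 female (replicate 1) and 3 males, and from 5 floxed littermate controls, 3 females (replicates 1 to 3) and 2 males, all 6 weeks old and each giving 1 library. The sources used here do not state how, or in which cells, the floxed allele was deleted. Total counts over all regions ran from 612479 (replicate 4) to 1070610 in the KO libraries and from 445912 to 1170130 in the controls. A list of 10 hepatocyte genes, among them albumin (Alb), summed to between 17277 and 25436 CPM (counts per 1000000 counts of the library) in KO and between 28145 and 38873 CPM in control livers, so the defining transcripts of liver were present in every library.

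Neurons release transmitter from vesicles that synapsins tether and synaptotagmins trigger, and receive it at postsynaptic densities built on scaffold proteins. Their RNA is rich in brain-restricted microRNAs and is spliced by neuronal RNA-binding proteins, and many neuronal genes have very long introns. A microRNA finds targets mainly through its seed, bases 2 to 8 counted from the 5' end, which pairs with a short match in the target. In the liver, hepatocytes make up most of the tissue, and none of the 10 genes is used to define them.

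The following microRNAs are shown because each had a seed match of 7 or 8 bases in one of the member regions described below. Sequences are mature forms from RefSeq (GRCm38.p6), written 5' to 3', with the seed in capitals.
mmu-miR-192-5p: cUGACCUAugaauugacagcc
mmu-miR-103-3p: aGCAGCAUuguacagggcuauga
mmu-miR-107-3p: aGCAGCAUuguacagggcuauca
mmu-miR-23a-3p: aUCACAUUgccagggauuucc
mmu-miR-130a-3p: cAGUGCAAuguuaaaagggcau
mmu-miR-27a-3p: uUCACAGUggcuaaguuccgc
mmu-miR-19a-3p: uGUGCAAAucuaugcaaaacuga
mmu-miR-26a-5p: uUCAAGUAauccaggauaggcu
mmu-let-7a-5p: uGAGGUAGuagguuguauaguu
Only miR-103-3p and miR-107-3p among them have the same seed. The family with the most member matches, miR-143-3p, and miR-122-5p are given by name.

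The 10 members together had 1361, 1496, 1807 and 5894 CPM in KO replicates 1 to 4, against 29.6, 35.9, 38.7, 40.2 and 21.5 CPM in control replicates 1 to 5. The groups did not overlap, and KO replicate 4 lay far above the other KO libraries. The means were 2640 ± 2178 CPM in KO (SD, n = 4) and 33.2 ± 7.69 CPM in control livers (n = 5). In raw counts the sums were 1370, 1535, 1935 and 3610 in KO, against 21, 16, 44, 47 and 16 in control libraries, so KO replicate 4 also held the most member reads before scaling, in the KO library with the smallest total.

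In the edgeR quasi-likelihood fit over all genes, 21.2% of 8856 tested genes were called higher in KO and 23.7% lower (adjusted p below 0.05). All 10 members passed its filter on low counts and all 10 were called higher, and in 20.3% of the genes tested, as in all 10 members, every KO library lay above every control library. Both counts follow from how the members were picked. Per region, 17.5% of 17182 tested regions were called higher in KO. Of the 223 member regions only 28 passed the filter, and those were all called higher, while 195 were too thinly covered to be tested. These were AGO-bound reads of bulk livers, in which the number of cells of a type, the RNA per cell and AGO binding of that RNA cannot be told apart.

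Among the vesicle genes, Syn1, which encodes the synapsin that coats synaptic vesicles, had 77.5, 92.6, 88.7 and 310 CPM in KO and no count in any control library. Its mean was at least 199.5-fold higher in KO, counted against a floor of 3 counts over the whole control group (0.713 CPM). Syt1, the calcium sensor of fast vesicle release, had 260, 280, 318 and 993 CPM in KO, against 23.96, 29.2, 32.5, 35.9 and 18.8 CPM in controls. It was the member with reads in every control library at more than 10 CPM, and its KO mean was 16.5-fold the control mean.

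Dlgap1, a scaffold of the postsynaptic density, had 102, 109, 121 and 452 CPM in KO and no control count, at least 275-fold higher. The adhesion protein Cadm2, of the immunoglobulin family, had 146, 152, 193 and 609 CPM in KO and no control count, at least 386-fold higher. Csmd1, a large membrane protein with complement-control domains, had 98.4, 113, 149 and 472 CPM in KO and again none in controls, at least 292-fold higher. For all of these genes KO replicates 1 to 3 lay close together and replicate 4 stood above them.

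Map2, which binds microtubules in dendrites, had 154, 211, 272 and 785 CPM in KO, against 4.23 CPM in control replicate 1, 4.49 CPM in replicate 2 and no count in the others. The 5 control reads gave a KO mean 204-fold higher. Rbfox1, a splicing regulator of neurons and muscle, had 268, 295, 351 and 1194 CPM in KO and no control count, at least 739-fold higher. The control libraries thus held no read of 7 of the 10 members, where 4.68% of all named genes had no control count.

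Vsnl1, a neuronal calcium sensor, had 100, 98.4, 128 and 431 CPM in KO and no control count, at least 266-fold higher. Slc24a2, a potassium-dependent sodium and calcium exchanger, had 91.4, 82.8, 99.9 and 364 CPM in KO and none in controls, at least 224-fold higher. Aldoc, the brain form of the glycolytic enzyme aldolase, had 62.6, 62.4, 86.9 and 284 CPM in KO, against 1.41, 2.24, 6.16, 4.27 and 2.68 CPM in controls, 37.0-fold higher. Syt1, Aldoc and Map2 held all 144 control counts of the members, 123, 16 and 5 of them, beside 8450 counts in the KO libraries.

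**Figure D1:**
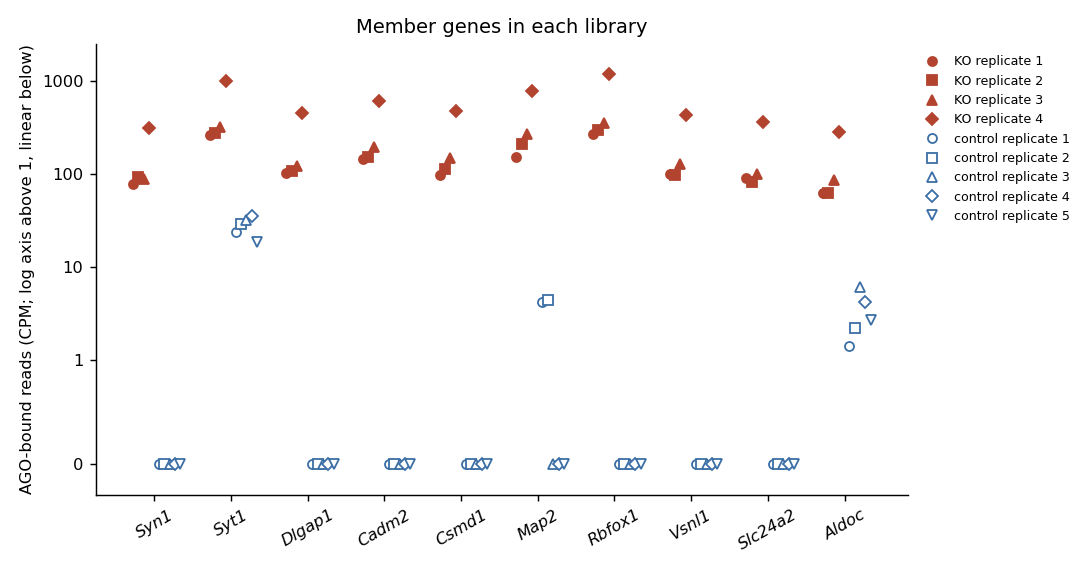
AGO-bound reads of each member gene in CPM (vertical axis, logarithmic above 1 and linear below) in the 4 KO libraries (filled symbols, left) and the 5 control libraries (open symbols, right), 1 point per library. KO replicate 4 is the highest point for every gene, and only Syt1, Map2 and Aldoc have control points above 0.

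KO replicate 4 had 3.79 times the mean of KO replicates 1 to 3 for the summed members. Gene by gene this ratio stayed between 3.47 for Syt1 and 4.08 for Dlgap1, and in raw counts it ran from 2.05 to 2.41. Of the 223 regions, 210 had their highest CPM in KO replicate 4. With KO replicate 4 left out, the fit called all 10 genes and 28 member regions, counts that also follow from how the members were picked.

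The mix of members was alike in the 4 KO libraries although their level was not. Rbfox1 took 19.4% to 20.2% of member counts per KO library, Syt1 16.8% to 19.1%, Map2 11.3% to 15.0% and Cadm2 10.2% to 10.7%. The other genes took between 4.17% (Aldoc) and 8.22% (Csmd1), and none moved by more than a few percentage points between libraries. Introns held 40.0%, 40.3%, 40.3% and 40.5% of member counts in KO replicates 1 to 4. Over the 223 regions, log2(CPM + 1) correlated at r = 0.823 to 0.841 between pairs of KO libraries, points that share the choice of regions.

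**Figure D2:**
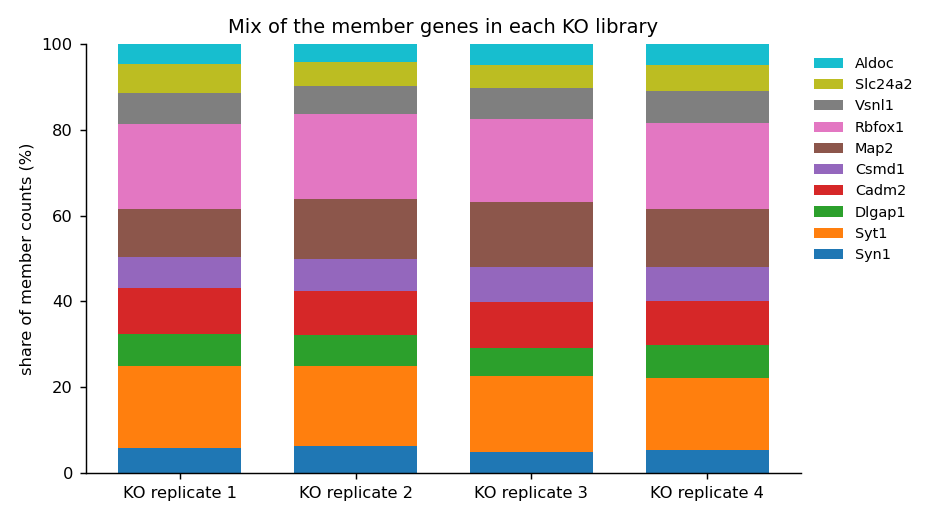
Share of the summed member counts (vertical axis, percent) taken by each member gene in each of the 4 KO libraries, as stacked bars. The segments have similar heights in all 4 bars, with Rbfox1 at 19.4% to 20.2% throughout.

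The 223 regions had a median width of 70 bases (70 to 191) and a median of 20 counts over the 4 KO libraries, up to 360. Reads were present in all 4 KO libraries in 195 regions, in 3 of them in 14 regions and in 2 in 12. No control read fell in 209 of the regions (93.7%, where 8.47% of all regions had none), and 101 lay within 1000 bases of another member region of the same gene. On GRCm38, the build that mm10 denotes, all 223 lay inside the RefSeq span of their own gene. A second RefSeq gene also overlapped 29 of them: C030002A05Rik at 13 Csmd1 regions, Gm36601 at 9 Syt1 regions, 1700010K23Rik at 5 Cadm2 regions, and Gm39136 and Gm36746 at 1 region each. The sources used here do not state how reads were assigned to overlapping genes, so these regions are uncertain in their gene.

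Per the deposited annotation, 159 member regions (71.3%) were intronic, against 11.2% of all regions. They held 40.3% of the members' KO counts, where introns held 4.62% of the KO counts of all regions. The 3' UTRs held 46 member regions (20.6%, against 32.7% of all regions) but 55.2% of the members' KO counts, and 7 regions lay in coding sequence, 10 in annotated repeats and 1 in a 5' UTR. Coding sequence made up 3.14% of member regions and 36.3% of all regions. The median region had 81 KO counts in 3' UTRs and 16 in introns, so 24 of 46 UTR regions and 3 of 159 intron regions were deep enough to be tested.

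The share of introns divided the members into sets. Rbfox1 had 64 of its 69 regions in introns (91.8% of its KO counts), Csmd1 29 of 33 (92.0%) and Dlgap1 22 of 26 (87.1%). In Aldoc (99.2%), Vsnl1 (96.4%), Syn1 (92.6%), Slc24a2 (81.7%), Syt1 (79.6%), Map2 (79.3%) and Cadm2 (66.8%) most KO counts lay in the 3' UTR. Other genes of the neural lists described below, with 1232 regions, had 48.2% of their regions and 23.5% of their KO counts in introns. The 7641 other regions without a control count, in 2353 genes, had 43.1% and 33.5%, so a high intron share was not limited to the members.

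**Figure D3:**
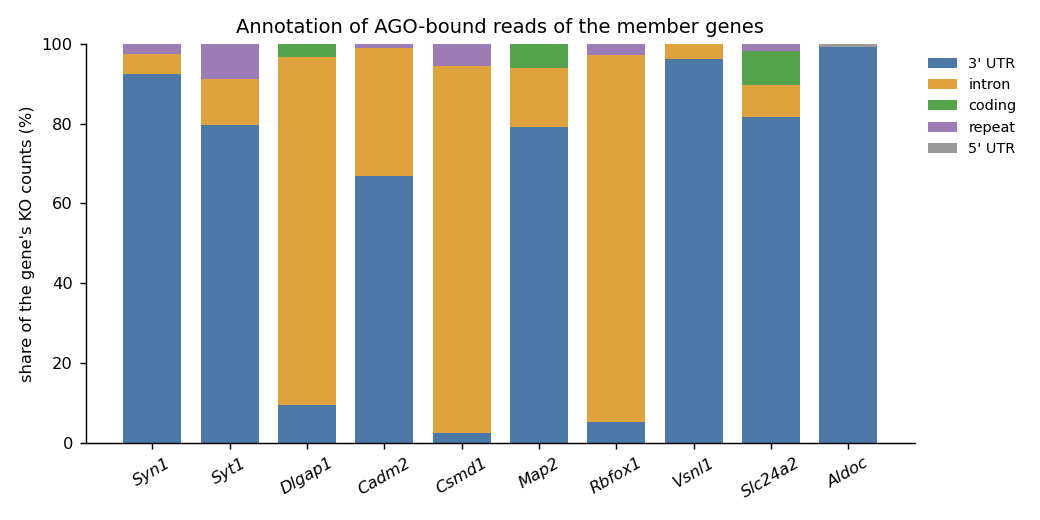
Share of each member gene's KO counts (vertical axis, percent, summed over the 4 KO libraries) by annotation class, as stacked bars. Introns fill most of the bars of Rbfox1, Csmd1 and Dlgap1, and 3' UTRs most of the bars of the other 7 genes.

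The region with the most KO reads in Aldoc lay in its 3' UTR at chr11:78326448-78326517 (mm10, as all coordinates here) and held 56, 60, 81 and 163 counts in KO replicates 1 to 4. In the Syn1 3' UTR, chrX:20860895-20861026 held 57, 64, 56 and 139 counts in KO. In the Cadm2 3' UTR, chr16:66662772-66662841 held 51, 55, 73 and 134 counts in KO and overlapped 1700010K23Rik. All 3 carried a miR-143-3p match of 7 or 8 bases and had no control count. The Syn1 region also carried a match of miR-192-5p, printed above.

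In the 3' UTR of Vsnl1, chr12:11325989-11326058 held 48.7, 50.7, 53.2 and 233 CPM in KO, with matches of the miR-103/107-3p and miR-23a/b-3p families. In Slc24a2, chr4:86988685-86988814 held 18, 17, 15 and 41 counts in KO, with matches of miR-143-3p and miR-192-5p, the same pair as in Syn1. The leading 3' UTR regions of Syt1 (chr10:108498066-108498192, 43, 46, 65 and 90 counts in KO, within Gm36601) and of Map2 (chr1:66439011-66439080, 18, 26, 32 and 61) had no match of 7 or 8 bases to any of the 31 families in the file. None of these 4 regions held a control read.

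The leading regions of the other 3 genes were intronic. Rbfox1 had 21, 25, 42 and 68 KO counts at chr16:7024222-7024291, Csmd1 20, 24, 31 and 52 at chr8:17431842-17431911, and Dlgap1 12, 17, 10 and 43 at chr17:70729484-70729553, with no control count. The file marked all 3 as orphans, its term for a region with no listed family match. Of member regions, 85 (38.1%) were orphans, against 17.0% of all regions. In introns the shares were 43.4% for members and 24.5% for all regions, and in 3' UTRs 13.0% and 11.2%. Of the 7641 other regions without a control count, 44.3% were orphans.

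The 14 member regions with control reads were mostly regions that the KO libraries covered far more deeply. In the Syt1 3' UTR, chr10:108498991-108499120, with a miR-27a/b-3p match, held 36, 39, 45 and 91 counts in KO, against 3, 3, 8, 8 and 1 in controls. A second Syt1 region, chr10:108500329-108500462, with a match of 8 bases to miR-19a/b-3p, held 13, 17, 16 and 35 counts in KO, against 2, 1, 5, 6 and 1 in controls. Another, chr10:108498667-108498856, with a miR-130a-3p family match, held 39, 45, 57 and 97 counts in KO, against 3, 1, 0, 0 and 1. The Syt1 3' UTR thus had 1192 counts in KO libraries and 49 in controls.

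A pair of Syt1 intron regions ran the other way. At chr10:108582536-108582605 no KO library had a read, and the controls had 4, 4, 17, 18 and 7. At chr10:108576996-108577065 the KO libraries again had none, and the controls had 4, 1, 5, 4 and 3. Both carried a miR-122-5p match of 7 or 8 bases, and together they held 67 of the 123 control counts of Syt1. They were too thinly covered to pass the filter of the region fit. In another Syt1 intron region, chr10:108661657-108661726, with a match of 8 bases to let-7, the KO libraries had 0, 3, 2 and 0 counts and the controls 0, 1, 1, 4 and 1.

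Of 6 member regions with a miR-122-5p match, the other 4, in Cadm2 and Rbfox1, had reads in KO libraries and none in controls. Of the 16 control counts of Aldoc, 15 lay in its 5' UTR, at chr11:78323092-78323161, with 1, 0, 2 and 0 counts in KO and 1, 1, 7, 4 and 2 in controls. The remaining control read lay in the 3' UTR at chr11:78326682-78326751, where the KO libraries held 6, 4, 10 and 11 counts. The control reads of Map2 lay in 3 regions. One of these, chr1:66439762-66439891 in the 3' UTR, carried a match of 8 bases to miR-26a/b-5p and held 12, 19, 23 and 41 counts in KO, against 2 in control replicate 1 and 0 in the other controls.

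Matches of miR-143-3p were the most frequent in member regions. They occurred in 29 of the 223 (13.0%), which held 21.4% of the members' KO counts, with 20.6% to 22.0% in each KO library. The shares of regions were 6.25% in other neural list genes, 7.53% in the 7641 other regions without a control count and 2.83% in all 92645 regions. The next families in the members, miR-122-5p (6 regions, 2.69%), miR-15 (2.24%) and let-7 (1.79%), were each less frequent there than over all regions, where their shares were 6.21%, 6.37% and 5.52%. The same order between the sets was seen for miR-143-3p within introns (11.9% of member introns, 4.76% of all intron regions) and within 3' UTRs (15.2% and 2.72%).

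By gene, miR-143-3p matches lay in 9 Rbfox1 regions, 7 Cadm2 regions, 3 each of Dlgap1 and Slc24a2, 2 of Map2 and 1 in each other member. They covered 91.4% of the KO counts of Aldoc, 69.0% of Syn1, 47.9% of Cadm2 and 40.0% of Slc24a2, and between 1.66% and 16.4% of the other 6 genes. In the deposited conservation score, the mean phyloP of the match's 6 bases, member matches of this family in introns had a median of -0.11, with 1 of 20 at or above 1, against a median of 0.03 for its matches in all intron regions. In 3' UTRs their median was 0.38, with 1 of 8 at or above 1, against 0.45 for its matches in all 3' UTR regions. Matches of any family had a median of 1.18 in member 3' UTRs (20 of 37 at or above 1) and 0.85 in all 3' UTR regions. The region over Mir143 itself, the gene of this microRNA, had 202 ± 79.6 CPM in KO (SD, n = 4) and 133 ± 63.7 CPM in control livers (n = 5), with overlapping groups.

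**Figure D4:**
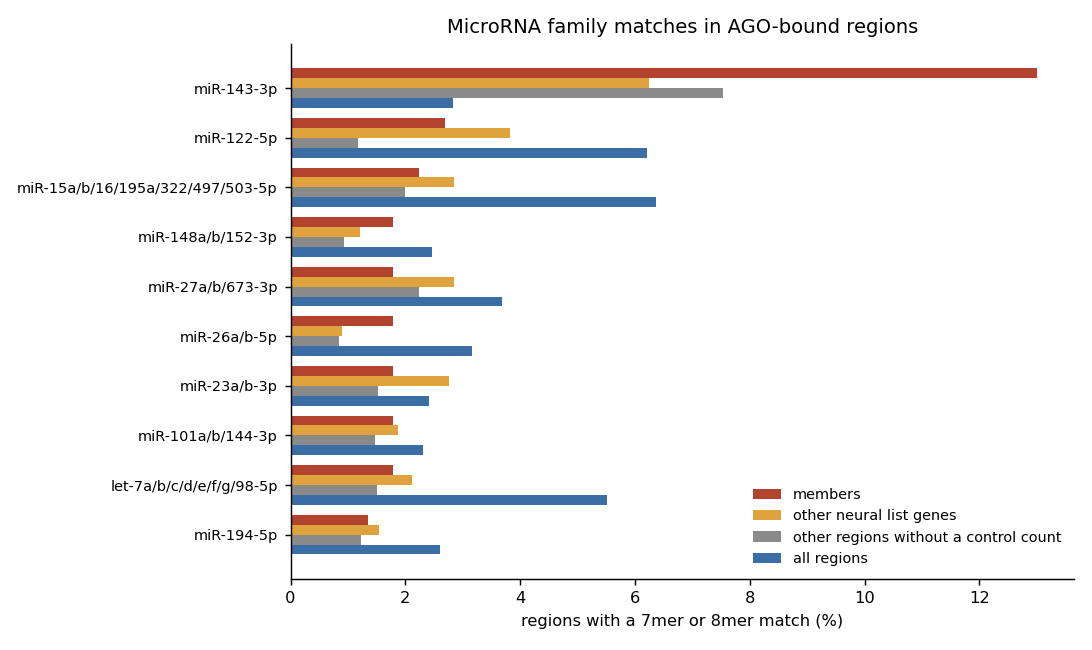
Percent of regions (horizontal axis) with a seed match of 7 or 8 bases to each of the 10 microRNA families most frequent in member regions, for members, other neural list genes, other regions without a control count, and all regions. The last of the 10 was tied with other families at 3 member regions. The miR-143-3p bar of the members reaches 13.0%, against 2.83% for all regions. Families with 4 to 6 member regions have shorter bars in members than in all regions.

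Other genes of the nervous system were followed through lists of markers that do not hold the members. The neural lists named 144 genes, of which 113 were in the file and 83 were tested, with 78 called higher in KO and 1 lower. Over all 8856 genes tested, 21.2% were called higher and 23.7% lower, the shares to set beside each list below. The lists were written with earlier results of these data known, so they are no independent check. The median log2 fold change of the 83 was 7.28, and 6.27 with the 26 genes that had no control count set to their lower bound, against 0.05 over all genes tested. Their sums were 8816, 9518, 10593 and 32511 CPM in KO, against 912, 919, 1019, 855 and 854 CPM in controls, with KO replicate 4 again the highest. Where controls had almost no reads, a gene was tested only because the KO libraries covered it. Without KO replicate 4, 80 genes of these lists were called. Each adjusted p below is from edgeR's quasi-likelihood test over all genes.

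Of the presynaptic list, 16 of 17 tested genes were higher in KO and none lower. Snap25, a SNARE protein of vesicle fusion, averaged 923 ± 689 CPM in KO and 1.89 ± 1.75 CPM in controls (adjusted p = 2.16e-06). Rab3a, a vesicle GTPase, was not called (log2 fold change 0.38). All 4 KO libraries lay above all 5 controls for Snap25.

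Of 16 tested postsynaptic genes, 13 were higher in KO, among them the NMDA receptor subunit Grin2b with 150.1 ± 116 CPM in KO and 1.06 ± 1.16 CPM in controls (adjusted p = 2.41e-05). Homer1, a scaffold also made outside neurons, was lower, with 21.7 ± 11.1 CPM in KO and 41.0 ± 8.04 CPM in controls (adjusted p = 0.0276). That call was lost under upper quartile scaling and without KO replicate 1 or 2 or control replicate 3, 4 or 5, and its adjusted p ran from 0.00513 to 0.123 over 17 alternatives. Shank2 and Shank3 were not called, with log2 fold changes of 0.42 and 0.49. Homer1, Shank2, Shank3 and Rab3a are named because of how they moved.

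All tested genes of the other neuronal lists were higher in KO, 6 of RNA-binding proteins, 6 of cytoskeleton, 12 of channels, pumps and calcium sensors, 11 of adhesion, 6 of transmitter type and 2 long non-coding RNAs. Celf2, an RNA-binding protein that controls also covered, averaged 314 ± 135 CPM in KO and 106 ± 25.5 CPM in controls (adjusted p = 0.00389). Npy, a peptide transmitter, and Slc17a6, a vesicular glutamate transporter, had no control count and averaged 46.6 ± 38.7 and 55.6 ± 54.4 CPM in KO. The non-coding RNA Meg3 averaged 3710 ± 3010 CPM in KO and 5.60 ± 6.32 CPM in controls (adjusted p = 2.91e-06).

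Of the 12 genes of the oligodendrocyte list 2 were tested, and both were higher. Mbp, a myelin protein, averaged 65.7 ± 51.1 CPM in KO and had no control count. Of 5 tested astrocyte genes 4 were higher, and Slc1a2, a glutamate transporter, missed the threshold with 764 ± 380 CPM in KO and 401 ± 80.0 CPM in controls (adjusted p = 0.0740, and 0.0279 to 0.284 over 17 alternatives, of which 4 called it, including the fit without KO replicate 1). Neither of 2 tested microglia genes was called, and the microglia sum ran from 167 to 306 CPM in KO and from 152 to 311 CPM in controls.

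Regional markers were thin. The cerebellar genes Cbln3, Gabra6, Zic1 and Neurod1 had 72, 67, 28 and 5 counts over the KO libraries and none in controls, and none was deep enough to be tested. No gene of the forebrain list was deep enough to be tested. Of 14 genes of autonomic neurons and Schwann cells 3 were in the file, and the tested one, Hand2, was higher in KO at 35.8 ± 10.5 CPM, against 14.8 ± 7.12 CPM in controls (adjusted p = 0.0303). The Hand2 call was lost in 5 of 17 alternatives, among them those without KO replicate 2 or control replicate 4 or 5, and its adjusted p ran from 0.0132 to 0.133. Th and Dbh, which define sympathetic neurons, were not among the file's gene names. Of 10 endocrine genes 2 were in the file, with 21 counts in KO and 1 in controls.

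Hairpin regions of brain microRNAs were thinly covered in both groups, which overlapped for each of them. Mir124a-2, a gene of the neuronal miR-124, had 0, 0, 4 and 6 counts in KO and 1, 1, 0, 1 and 0 in controls. Mir132 had 1, 11, 31 and 6 counts in KO and 7, 1, 5, 6 and 2 in controls, and Mir137 had 3, 11, 17 and 4 in KO and 5, 0, 1, 3 and 2 in controls. None of the 3 was tested, and the other listed names were not in the file. Of the 10 hepatocyte genes, 6 were lower in KO and 1 higher, with a median log2 fold change of -0.57. Over all genes tested, 23.7% were lower and 21.2% higher.

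**Figure D5:**
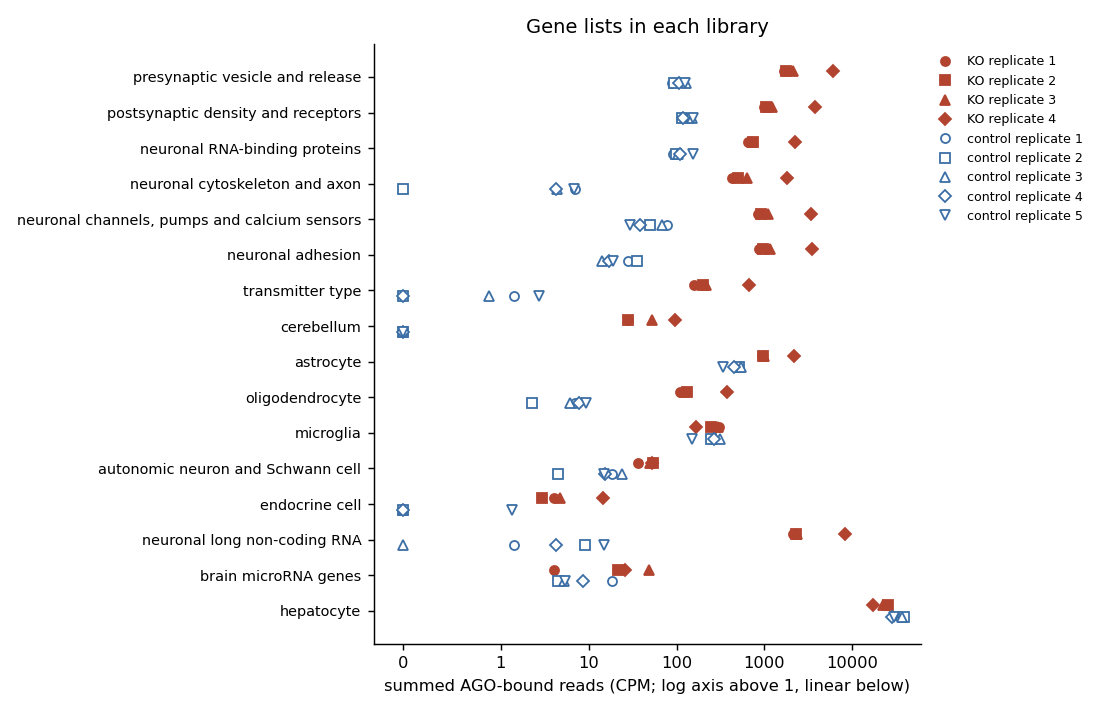
Summed CPM of each marker list except forebrain (horizontal axis, logarithmic above 1 and linear below) in the 4 KO libraries (filled symbols, upper row of each list) and the 5 control libraries (open symbols, lower row). The forebrain list, with 5 counts in KO and 9 in controls, is not drawn. KO points lie to the right of control points for the neuronal, astrocyte and oligodendrocyte lists, overlap them for microglia, and lie to the left for hepatocytes.

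The ratio of KO replicate 4 to the mean of KO replicates 1 to 3 was 3.17 to 3.72 in the neuronal lists of synapse, RNA binding, cytoskeleton, channels, adhesion, transmitter type and non-coding RNA, 3.07 for oligodendrocytes and 2.26 for astrocytes. Slc1a2, which controls also covered, made up 764 of the 1264 CPM of the astrocyte list in KO, with a ratio of 2.32. Over the 8 astrocyte genes the ratio ran from 0.606 (Gja1) to 3.97 (S100b, 16 KO counts). Slc1a3 and Atp1b2, with 1 and 2 control counts, had 3.21 and 3.58. The ratio was 1.11 for autonomic neurons and Schwann cells, 0.715 for hepatocytes and 0.588 for microglia. Hand2 held 35.8 of the 48.3 CPM of the autonomic list in KO, with a ratio of 0.619. Ret and Slc18a2 of that list, with 29 and 11 KO counts, had 4.15 and 2.93. Sall1 held 229 of the 254 CPM of the microglia list in KO, with a ratio of 0.613. Thinly covered lists had 2.67 (cerebellum, 172 KO counts), 3.81 (endocrine, 21) and 1.27 (forebrain, 5). The 7641 other regions without a control count summed to 29026, 31188, 35984 and 112294 CPM in the KO libraries, which put replicate 4 at 3.50 times the other mean. What set KO replicate 4 apart was not tested.

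The genes whose levels most resembled the summed members, by Pearson's r of log2(CPM + 1) over the 9 libraries among 6466 tested genes with at least 20 CPM in KO, all had r = 0.997 and no control count. They were 4930519F16Rik, Gnao1 (a G protein subunit), Nrcam (an adhesion molecule), Hpcal4 (a calcium sensor), Gm26660 and the glutamate receptor subunits Gria2, Gria4 and Grik2. Gria2 had 48.7, 52.6, 69.1 and 230 CPM in KO. The r over the 9 libraries includes the KO against control difference by which the members were chosen. The ranking is thus a description and no independent sign of likeness. No region of Gm26660 lay in a RefSeq gene of that name, so its identity is uncertain.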

How the data were processed

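AGO CLIP-seq was done on 9 livers, each library from a separate mouse per the labels. Per the labels' protocols, frozen tissue was crosslinked, partially digested with RNase and amplified in 2 PCR rounds. Per the submitters' processing notes, Bowtie2 and mm10 were used. Nothing used here states versions, the peak caller, duplicate removal, or how strand was treated in counting. The deposited values were read counts per region and library, not normalized, per the file headers. The deposited phyloP value is a conservation score per seed match, per the file headers. The authors' log2 fold change was not used in any result.

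The 143524 deposited rows were reduced to 92645 unique regions, and counts were summed per gene name. CPM were scaled by library totals. A floor of 3 counts is 2.56 to 6.73 CPM in a library and 0.807 CPM over the KO and 0.713 CPM over the control group. Floors cover counting error only, since PCR reads are not independent molecules.

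All 9 libraries were fitted with edgeR 4.0.16 in R 4.3.3 (TMM, filterByExpr, glmQLFit and glmQLFTest, genotype and sex, Benjamini-Hochberg at 0.05), for all genes and for all regions, and the fit was tested on simulated data. Log2 fold changes are from this fit, KO over control. The simulation set the same dispersion for every row, not estimated from these data, so its recovery shares hold for that setting only. On the simulated data the fit recovered 8.0% of genes with a true log2 fold change of 1 and 15.6% at -1. At 2 and -2 it recovered 82.0% and 78.0% of genes. A gene that was not called is thus not shown to be unchanged. A gene without a control count was given its lower bound as KO mean CPM over the control floor. The members and gene lists were chosen with earlier results of these data known. Named were all members, their leading region, their regions with control reads or matches of the leading families, of each list up to 4 genes with the highest mean CPM in KO, and the 8 genes most alike. DESeq2 1.42.0 was an alternative. Pandas 2.3.3, numpy 2.4.6 and matplotlib 3.10.9 under Python 3.11.15 made tables and plots. A few genes of the marker lists are not reported here by name, though they stay in the counts.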

Additional observations from a re-analysis of the deposited data

Results flagged for a closer look

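In groups of 4 to 10 libraries, a library counted as apart when its gap to the next one, divided by the range of the group, passed Dixon's 95% critical value. Chance alone flags about 1 in 20 groups, and the genes and lists share the same libraries. KO replicate 4 stood apart as the highest KO library for 9 of the 10 members: the gap was 0.935 of the range for Syn1, 0.922 for Syt1, 0.945 for Dlgap1, 0.898 for Cadm2, 0.866 for Csmd1, 0.910 for Rbfox1, 0.911 for Vsnl1, 0.939 for Slc24a2 and 0.890 for Aldoc. Map2 did not pass, and the sum of the members had 0.902.

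The same library stood apart for the lists of presynaptic (0.906), postsynaptic (0.925), RNA-binding (0.945), cytoskeleton (0.856), channel (0.906), adhesion (0.894), transmitter (0.892), astrocyte (0.974), oligodendrocyte (0.919), endocrine (0.852) and long non-coding RNA (0.961) genes. The endocrine value rests on 4, 3, 5 and 9 counts in KO replicates 1 to 4, near the floor of 3 counts. For the RNA-binding list, control replicate 5 was the highest control, at 0.711, with 153 CPM against 91.6 to 109 CPM in the other controls.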

How the results depend on the processing

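All 10 members were called with DESeq2 size factors, the DESeq2 Wald test, upper quartile scaling or TMM from rows without a miR-122 match. They were also all called with no filter, with no sex term and with each library left out in turn. With 3' UTR rows only, 8 members passed the filter and all 8 were called. These counts follow from how the members were picked. Called member regions numbered 27 to 31 with 1 library left out, and 194 of 223 without a filter on low counts, of which 2 were lower, since the filter had removed 195 regions. Genes called in the neural lists numbered 73 to 80 with 1 library left out. Their 1 lower call, Homer1, was lost in 6 of 17 alternatives, Hand2 in 5, and Rab3a was called with 3' UTR rows only (adjusted p = 0.0214). The fit with a replicate block called 10 member genes, 28 member regions and 79 list genes, as without it. The sources used here do not state whether same-numbered KO and control mice were paired. Their deviations from the group means had r of -0.08 to 0.01, which cannot exclude a shared litter or shared processing. The median log2 fold change of all regions tested, 0.03 as reported, moved under other scaling to 0.26 (upper quartile) and -0.24 (TMM from rows without a miR-122 match). The ratio of KO replicate 4 to the other KO libraries was 5.17 under TMM scaling, and 3.82 over regions without a control read, an alternative chosen after seeing the data. Counted as shares of regions in place of KO counts, introns made up 71.3%, since intron regions held fewer reads each. Regions with miR-143-3p matches made up 13.0%. Of their 1810 KO counts, 1230 lay in 7 regions of 3' UTRs. Without matches of the 7mer-A1 class the miR-143-3p share was 20.05% of KO counts. Thin coverage limits most intron regions, whose median was 16 counts over the KO libraries.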
